A study of Mus musculus with 8 samples.

Results

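Ccr7, Ccl17, Ccl22 and Fscn1, 4 genes of the program by which dendritic cells (DCs) leave a tissue for the lymph node, were followed in single cells from tumors and blood of mice. They are 4 of the 32285 genes measured, chosen by name, and each was matched to 1 feature by its Ensembl identifier. Their unique molecular identifiers (UMIs, the count of distinct captured transcripts) were summed by library, by hashtag genotype and by marker-defined cell type, with DCs set against macrophages. The sums covered 27288 kept cells, of which 4656 came from control tumors, 6824 from irradiated tumors, 8388 from blood of control mice and 7420 from blood of irradiated mice.

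The study asked how ionizing radiation (IR) and loss of YTHDF2, a protein that binds methylated RNA, shape monocytic myeloid-derived suppressor cells, which were sorted as CD45+CD11b+Ly6Chi cells. Mice carried MC38 tumors, a transplanted colon carcinoma line, and the irradiated tumors received 20 Gy in 1 dose with collection 3 days later. Both genotypes carried floxed Ythdf2 on the C57BL/6J background: WT mice (Ythdf2 fl/fl) had no Cre, and cKO mice (Lyz-Cre;Ythdf2 fl/fl) had Cre under the lysozyme 2 promoter of myeloid cells, so that cells that do not use this promoter keep the gene. Cells of 5 mice were pooled for each of the 8 groups (tumor or blood, control or IR, WT or cKO), and the genotype of a cell was read from its hashtag antibody (B0301 for WT, B0302 for cKO). Each group was therefore 1 sample, no test of a difference between groups could be made, and every interval given here is a 95% interval that covers counting error only.

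CCR7 is the chemokine receptor that guides maturing DCs along its ligands CCL19 and CCL21 into lymphatic vessels and on to the lymph node. CCL17 and CCL22 are chemokines that mature DCs release, and both bind CCR4, a receptor on regulatory and other T cells. Fascin, the product of Fscn1, bundles actin filaments in the long processes of mature DCs, and fibroblasts and tumor cells use it as well.

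In mm10, Ccr7 lies on the minus strand of chromosome 11 at 99144196 to 99155077 and Fscn1 on the plus strand of chromosome 5 at 142960343 to 142973185. Ccl22 and Ccl17 are neighbours on the plus strand of chromosome 8, at 94745590 to 94751699 and at 94810453 to 94812036, with 58753 bases between them. All 4 are annotated as protein-coding in GENCODE vM21, and the positions are those of the whole genes, exons and introns together. Promoter sequences were sought for all 4 genes, and those of both chemokines and of Fscn1 are shown, as no entry was matched to Ccr7. They came from RefSeq (GRCm38.p6), each with 250 bases before and 50 after the RefSeq start, and 3 of the 4 genes were matched. Capitals mark matches to GGG, any 5 bases and CC (the length of a kappaB site) or to TTC, any 4 bases and GAA (the spacing of a STAT6 site), searched on both strands with overlaps allowed.
Ccl17, chr8:94810203-94810502, plus strand: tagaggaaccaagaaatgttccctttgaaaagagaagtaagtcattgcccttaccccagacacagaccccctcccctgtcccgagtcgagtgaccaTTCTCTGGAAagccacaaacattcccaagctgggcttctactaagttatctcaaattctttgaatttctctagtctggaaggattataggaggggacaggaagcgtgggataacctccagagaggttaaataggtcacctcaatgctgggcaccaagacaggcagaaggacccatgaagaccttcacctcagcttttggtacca
Ccl22, chr8:94745434-94745733, plus strand: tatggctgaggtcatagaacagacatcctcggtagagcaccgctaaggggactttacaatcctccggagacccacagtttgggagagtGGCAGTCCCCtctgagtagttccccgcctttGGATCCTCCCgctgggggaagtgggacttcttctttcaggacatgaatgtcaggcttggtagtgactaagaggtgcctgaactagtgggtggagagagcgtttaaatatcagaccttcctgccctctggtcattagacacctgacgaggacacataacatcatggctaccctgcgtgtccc
Fscn1, chr5:142960105-142960404, plus strand: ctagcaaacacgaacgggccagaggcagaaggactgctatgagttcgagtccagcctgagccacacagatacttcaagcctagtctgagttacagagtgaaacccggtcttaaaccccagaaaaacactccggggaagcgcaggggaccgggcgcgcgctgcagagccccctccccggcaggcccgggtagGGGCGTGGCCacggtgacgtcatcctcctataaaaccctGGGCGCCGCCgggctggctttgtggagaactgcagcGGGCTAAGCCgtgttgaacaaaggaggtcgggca
The Ccl17 window held 1 match to the STAT6 spacing, which starts 154 bases before the RefSeq start, and no match to the kappaB pattern. The Ccl22 window held 2 matches to the kappaB pattern, both on the minus strand, and the Fscn1 window held 3 on the plus strand. The kappaB pattern was present in 16686 of 32851 promoter windows of this length (50.8%), and the STAT6 spacing in 2284 (6.95%). A match describes the letters and is not evidence of binding.

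Gene UMIs per library ranged from 51653956 to 87703837, and the median per kept cell from 2980 to 7299.5. The 2 tumor matrices shared droplets: 96.6% of the cells kept for tumor control and 97.2% of those kept for tumor IR also held at least 500 UMIs in the other tumor matrix, against 0.250% and 0.283% for the blood cells. The hashtag reads decided to which tumor library such a cell was assigned, and 31 barcodes were kept in both. In the same droplets the other tumor matrix gave levels of the 4 genes in mature DC-like cells (defined below) that differed by log2 ratios of -0.20 to 0.28. Ythdf2 went against the hashtag labels: it was at 55.4 and 51.1 UMIs per 1000000 gene UMIs (CPM) in the cells labelled WT of tumor control and tumor IR, and at 371 and 338 in those labelled cKO. The reads are 3′ tags, and whether they lie outside the deleted part was not tested. This gene was therefore not used to check either label, and why it was higher under the cKO label was not tested. Lyz2, the gene that carries Cre, was at 6874 and 5602 CPM in the cells labelled WT and at 89.8 and 99.2 CPM in those labelled cKO.

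Over all kept cells, the 4 genes were tumor genes, and Ccr7 alone was found in blood above a few UMIs. In tumor control, Ccr7 was at 48.6 CPM (interval 45.6 to 51.7) in cells labelled WT and at 27.5 (25.4 to 29.7) in cells labelled cKO. In tumor IR it was at 69.1 (65.6 to 72.9) and 97.3 (93.4 to 101) in the same order. The irradiated tumors thus held the higher Ccr7 values under both labels, and the order of the labels was opposite in the 2 tumor libraries. In blood, Ccr7 was at 7.01 and 2.41 CPM in control mice and at 1.68 and 0.319 CPM in irradiated mice, for the labels WT and cKO.

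Ccl22 followed the same order as Ccr7, at 46.9 CPM (44.0 to 49.995) and 19.5 (17.7 to 21.3) in tumor control and at 51.0 (47.9 to 54.2) and 76.6 (73.1 to 80.1) in tumor IR, for WT and cKO. Ccl17 was at 148 (143 to 153) and 123 (118 to 127) in tumor control and at 232 (225 to 238) and 184 (178 to 189) in tumor IR. Fscn1 was at 35.6 (33.0 to 38.3) and 48.5 (45.7 to 51.4) in tumor control and at 41.2 (38.5 to 44.1) and 45.5 (42.8 to 48.2) in tumor IR. Ccl17 was thus higher in both IR groups than in both control groups and lower under the cKO label in each library, whereas Fscn1 was higher under the cKO label in both tumor libraries and kept no common order of the libraries. With a 4-fold margin asked of both hashtags the log2 ratio of cKO over WT for Fscn1 in IR was -0.061. That for Ccl17 in control was then positive, so the order of the labels for Ccl17 also depended on the hashtag call. In blood, Ccl17 had 2 UMIs in control mice with the label WT and 0 in the other 3 groups, and Ccl22 and Fscn1 had 0 UMIs in all 4 blood groups, where 3 UMIs would have been 0.136 to 0.160 CPM. These sums move with the number of DCs in a library as well as with the level per cell.

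**Figure D1:**
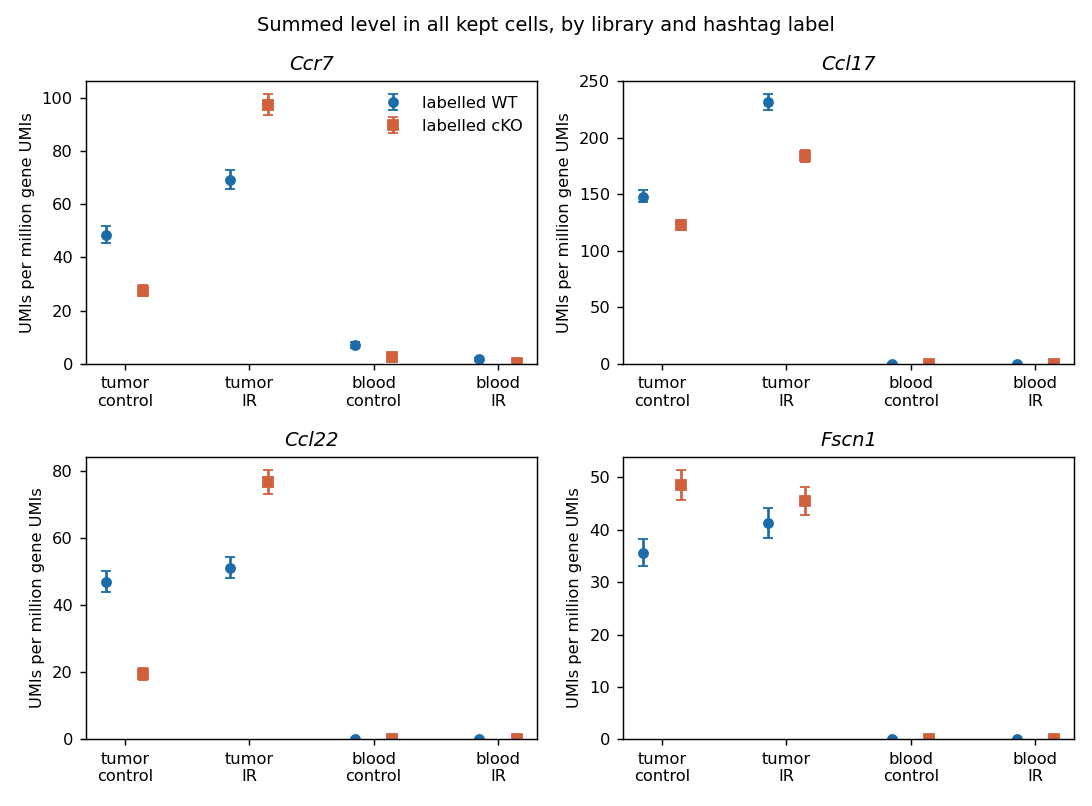
Each panel gives 1 gene. The vertical axis is the summed level in CPM, the horizontal axis the 4 libraries, circles the cells labelled WT and squares those labelled cKO, and bars the exact Poisson 95% interval. The 4 genes sit near 0 in blood, and Ccr7 and Ccl22 have their highest value in the irradiated tumors under the cKO label.

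The UMIs came from few cells. In tumor control, Ccr7 was seen in 151 of 4656 cells and the 18 highest held as many of its 1636 UMIs as all the rest. In tumor IR it was seen in 226 of 6824 cells, and the 36 highest held as many of its 3764 UMIs as all the rest. By the same measure Ccl17 was seen in 312 and 399 cells and rested on the 24 and 32 highest, Ccl22 on 14 and 29 of 148 and 239 cells, and Fscn1 on 65 and 34 of 370 and 211 cells. Single cells reached 414 and 457 Ccl17 UMIs. The intervals of the sums cover counting error and neither this spread between cells nor that between mice.

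Cell types were taken from 20 clusters built without the 4 genes, the listed pathway genes, Ythdf2 and the lysozyme genes, and the DC clusters were clustered again. Of the kept tumor cells, 277 (5.95%) in control and 356 (5.22%) in IR were DC-like, and 1096 (23.5%) and 2472 (36.2%) were macrophage-like. Clusters that met no marker rule stayed unnamed and held 56.7% and 53.6%. The DC-like cells included 44 and 112 mature DC-like cells, in which Il4i1, an amino acid oxidase of mature DCs, was at 460 and 774 CPM and Cacnb3 and Socs2, further markers of the state, at 569 and 539 CPM and at 460 and 530 CPM. All 14 mature DC markers that were listed, none of them a member of the 4, were detected in these cells under both labels. Flt3 and Zbtb46, a receptor and a transcription factor of classical DCs, were at 162 and 147 CPM and at 112 and 109 CPM in them. In the other DC-like cells Flt3 was lower, at 32.0 and 11.4 CPM, and so was Zbtb46, at 22.6 and 15.4 CPM. Macrophage-like cells had Flt3 at 1.61 and 0.290 CPM and Zbtb46 at 0.567 and 0.523 CPM.

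The mature DC-like cells had little RNA of the genes behind the sort. Itgam, which encodes CD11b, was at 0 CPM in control and 14.0 CPM in IR, against 517 and 838 CPM in macrophage-like cells, and Ly6c2 was at 9.92 and 26.7 CPM. The summed macrophage list (14 genes, of which 4 and 3 were at 0) was at 116 and 128 CPM in mature DC-like cells against 23453 and 17523 CPM in macrophage-like cells. The T cell list (9 genes) was at 52.9 and 4.21 CPM there, with 7 of its genes at 0 in each library. The macrophage-like class differed between the libraries: Ly6c2 was at 121 CPM in control and 1896 in IR, C1qa, a complement gene of macrophages, at 2795 and 778, and the monocyte list (9 genes) at 3946 and 8710. Its cells came from a cluster led by Mmp13, Rsad2, Cxcl3 and Nos2 (400 in control and 2312 in IR), which met 5 of 14 macrophage markers and had none of them among its top 10 genes, and from a cluster led by Fcrls, Ccl8 and Folr2 (696 and 160), which met 13. Ccl17 was at 8.71 and 9.62 CPM in the former and at 54.6 and 477 CPM in the latter. The other DC-like cells carried Cd209a, a lectin of monocyte-derived and type 2 DCs, at 457 and 449 CPM, and the monocyte list (9 genes) at 2398 and 3654 CPM. Itgam was seen in 45.1% and 50.8% of these cells and Ly6c2 in 45.5% and 56.1%. Whether cells of another type in these classes moved the results was not tested.

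Ccr7 belonged to the mature DC-like cells. It was at 3867 CPM (3648 to 4095) in these cells in tumor control and at 4291 (4140 to 4446) in tumor IR. Other DC-like cells had 168 CPM (151 to 188) and 301.9 (278 to 327), and macrophage-like cells 1.70 (1.01 to 2.69) and 1.74 (1.18 to 2.49). DC-like cells of both kinds held 91.1% and 97.4% of all Ccr7 UMIs of the kept tumor cells. T cell-like cells, which use CCR7 to enter lymph nodes, had 81.6 CPM in control (45 UMIs in 84 cells) and 5.27 CPM in IR (1 UMI in 33 cells). With each cell thinned to 1000 UMIs, 85.0% (70.2 to 94.3) of the mature DC-like cells in control and 94.5% (88.5 to 98.0) in IR held a Ccr7 UMI. The shares were 6.87% and 12.7% in other DC-like cells, 0.0914% and 0.203% in macrophage-like cells and 0 of 173 and 0 of 164 NK cell-like cells.

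Ccl22 had the same distribution. Its level was 3331 CPM (3128 to 3543) and 3362 (3229 to 3500) in mature DC-like cells of control and IR, 161 (144 to 180) and 207 (188 to 228) in other DC-like cells, and 2.55 (1.68 to 3.72) and 1.16 (0.710 to 1.79) in macrophage-like cells. DC-like cells held 93.1% and 97.2% of its UMIs. After thinning, 77.5% and 81.8% of mature DC-like cells held a Ccl22 UMI, against 9.01% and 11.5% of other DC-like cells.

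Ccl17 was spread over more cell types than its neighbour Ccl22. Mature DC-like cells had 1654 CPM (1512 to 1805) in control and 1352 (1268 to 1440) in IR, and other DC-like cells had 1420 (1367 to 1474) and 1815 (1757 to 1875). Macrophage-like cells had 43.1 (39.3 to 47.3) and 39.4 (36.5 to 42.5), and the unnamed clusters 115 (111 to 120) and 186 (181 to 192). DC-like cells held 54.2% and 50.5% of the Ccl17 UMIs of the tumor, and unnamed clusters 2230 of 5909 and 3839 of 9134 UMIs. Most of the latter lay in 1 unnamed cluster led by Cdh1, H2-Ab1 and Cxcl9 that met 7 of 14 macrophage markers but had none of them among its top 10 genes. It also met 5 general DC markers, of which 3 (H2-Ab1, H2-Eb1 and H2-Aa) were in that top 10. Its Ccl17 level was 160 CPM in control and 348 CPM in IR, with a UMI in 8.39% of 1466 cells and 9.26% of 1307 cells. Among the macrophage-like cells, the highest 3 cells in control and 2 in IR held as many Ccl17 UMIs as all the rest. Without the 5 cells highest in Ccl17 the macrophage-like level was 12.996 CPM in control and 6.30 CPM in IR.

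Within the other DC-like cells, Ccl17 marked 1 subcluster. This subcluster of 329 tumor cells was led by Plet1 and by class II antigen presentation genes such as H2-DMb2, H2-Oa and H2-Eb1. It met 6 of 8 general DC markers, and Flt3 and Zbtb46 were not among those met. It had Ccl17 at 1974 CPM in control and 2333 CPM in IR. Ccl22 there was at 224 and 266 CPM, Ccr7 at 211 and 384 CPM and Fscn1 at 4.45 and 5.19 CPM. The type 2 DC-like subcluster, led by Cd209a, had Ccl17 at 81.4 CPM (76 cells) and 10.7 CPM (41 cells) and no Fscn1 UMI. A subcluster led by Cd209a and interferon-response genes (4 and 26 tumor cells) had Ccl17 at 0 and 257 CPM.

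Most Fscn1 UMIs lay in mature DC-like and fibroblast-like cells. Mature DC-like cells had 2077 CPM (1918 to 2246) in control and 1925 (1824 to 2029) in IR, whereas other DC-like cells had 3.15 (1.16 to 6.85) and 3.98 (1.72 to 7.84). Fibroblast-like cells, whose median depth was 26937 and 19691.5 UMIs, had 114 CPM (107 to 120) and 159 (146 to 174). The sort on CD45, CD11b and high Ly6C would remove fibroblasts, and the class was named from its markers alone. In tumor control the fibroblast-like cells (369) held 64.9% of the Fscn1 UMIs and the DC-like cells 33.8%, and in tumor IR the fibroblast-like cells (122) held 26.6% and the DC-like cells 71.2%. The level of Fscn1 over all kept cells, 42.6 CPM in control and 43.6 CPM in IR, was therefore a sum over fibroblast-like cells, which were fewer in IR, and mature DC-like cells (44 and 112), which were more numerous.

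**Figure D2:**
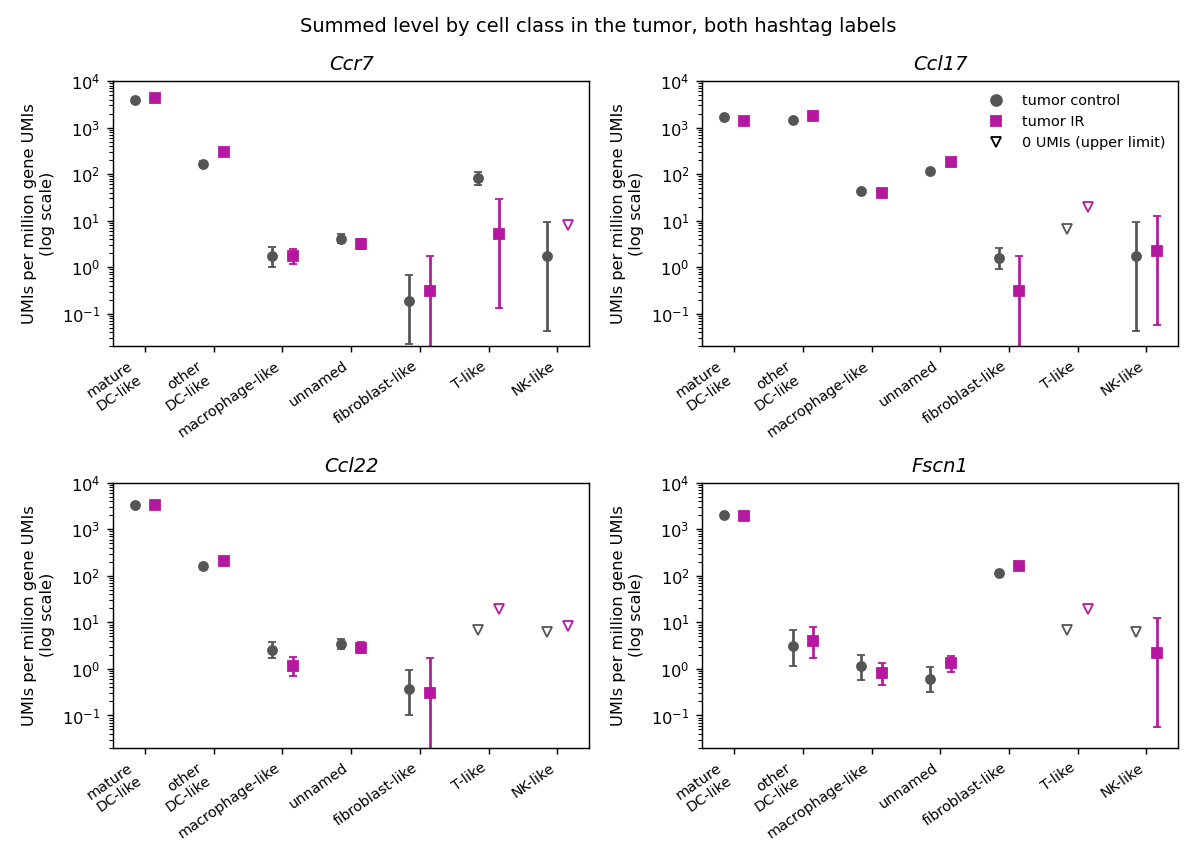
Each panel gives 1 gene. The vertical axis is the summed level in CPM on a log scale, the horizontal axis the cell class in the tumor (DC-like stands for dendritic cell-like), circles tumor control and squares tumor IR with exact Poisson 95% intervals, and open triangles the upper limit where a class had 0 UMIs. Ccr7, Ccl22 and Fscn1 peak in mature DC-like cells, Ccl17 is as high in other DC-like cells, and Fscn1 is also present in fibroblast-like cells.

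DCs were compared with macrophages as the log2 ratio of their summed CPM, with 1 UMI added. All 4 genes were past a 2-fold limit (absolute log2 ratio of at least 1 with at least 100 UMIs) in both tumor libraries, where 5.79% of 7744 genes in control and 9.25% of 8039 genes in IR were higher by as much in DC-like cells. Ccr7, Ccl22 and Fscn1 had 18, 27 and 12 UMIs in macrophage-like cells of control and 30, 20 and 14 in IR. They met the minimum only through the DC-like cells, also under each label. Their place past the limit and their ranks are thus a description and no support. For Ccr7 the ratio was 8.50 (7.97 to 9.39) in control and 9.51 (9.08 to 10.16) in IR. For Ccl22 it was 7.78 (7.32 to 8.47) and 9.68 (9.17 to 10.51), and for Fscn1 7.80 (7.17 to 8.94) and 9.12 (8.53 to 10.16). Ccl17 had the smallest ratio of the 4, 5.07 (4.93 to 5.22) and 5.42 (5.31 to 5.54). Ranked from the highest ratio, Ccr7, Fscn1, Ccl22 and Ccl17 stood at positions 1, 4, 5 and 17 of 7744 in control and at 7, 9, 6 and 33 of 8039 in IR.

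The excess in DCs was present under both labels. In control, cells labelled WT and cKO gave 7.53 and 9.33 for Ccr7, 6.72 and 9.04 for Ccl22, 4.67 and 5.45 for Ccl17 and 7.14 and 8.11 for Fscn1 (6.59% and 6.07% of genes past the limit upward). In IR the ratios were 8.94 and 9.81 for Ccr7, 9.01 and 9.98 for Ccl22, 5.65 and 5.24 for Ccl17 and 8.19 and 9.58 for Fscn1 (8.35% and 8.51%). Over 12 settings of the processing the 4 ratios stayed positive, with a lowest value of 2.84 for Ccl17 in IR at a finer clustering and of 3.27 for Fscn1 in control against all other tumor cells, fibroblast-like cells included. Against macrophage-like cells the lowest Fscn1 ratios were 5.76 in control and 7.46 in IR. Where the setting left a macrophage-like class in tumor IR, that class held between 1231 and 4060 cells. With the labels joined, scaling factors of the TMM method shifted the ratio of DC-like over macrophage-like cells by 0.11 in control and by -0.18 in IR.

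**Figure D3:**
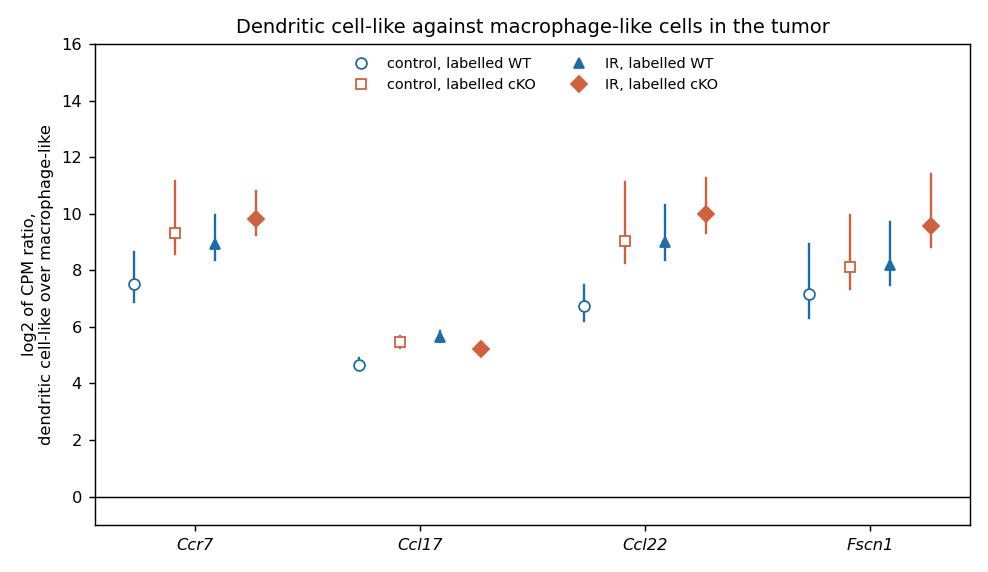
The vertical axis is the log2 ratio of CPM in DC-like over macrophage-like cells of the tumor, the horizontal axis the 4 genes. Open symbols are tumor control and filled symbols tumor IR, blue is the label WT and orange the label cKO, and bars are exact conditional binomial 95% intervals. All 16 values lie above 4, and Ccl17 is the lowest gene in each group.

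Mature and other DC-like cells differed more in Ccr7, Ccl22 and Fscn1 than in Ccl17. The log2 ratio of mature over other DC-like cells was 4.51 (4.34 to 4.70) in control and 3.83 (3.70 to 3.96) in IR for Ccr7, and 4.36 (4.18 to 4.56) and 4.01 (3.87 to 4.17) for Ccl22. For Fscn1 it was 9.001 (8.24 to 10.82) and 8.67 (7.94 to 10.13), the highest of all 2736 and 3306 genes measured. These 3 genes were past the limit, as were 9.72% and 10.7% of all genes upward. Ccl17 was not, with 0.22 (0.08 to 0.36) in control and -0.42 (-0.53 to -0.32) in IR. Fscn1 met the minimum of UMIs through the mature cells alone. The clusters were built from genes that move together with these 4, so the ratios describe the classes. Other DC-like cells still exceeded macrophage-like cells by 6.50 and 7.35 for Ccr7, 5.89 and 7.36 for Ccl22 and 5.04 and 5.52 for Ccl17, where 5.12% and 7.92% of genes were past the limit upward. Fscn1 had only 6 and 8 UMIs there and stayed under the minimum.

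The 4 genes were seen together in mature DC-like cells. Of the 156 such cells in the tumor, 93 (59.6%) held UMIs of all 4 genes, 49 (31.4%) of 3, and none held 0. With cells thinned to 1000 UMIs, 48 of 150 (32.0%) held all 4 and 57 (38.0%) held 3. Of the other DC-like cells, 209 of 477 (43.8%) held none of the 4 and 2 held all 4, and after thinning 299 (62.7%) held none and 0 held all 4. Among these other DC-like cells, Ccl22 was mostly found beside Ccl17: 114 of 140 cells with a Ccl22 UMI (81.4%, 74.0 to 87.5) also held Ccl17, which 45.5% of the class held. After thinning the shares were 38 of 49 (77.6%) and 30.8%. In macrophage-like cells, 3 of 24 cells with a Ccl22 UMI (12.5%, 2.66 to 32.4) held Ccl17, which 2.19% of the class held. Barcodes with too few UMIs to be cells had Ccl17 at 99.1 and 117 CPM and Ccl22 at 71.1 and 46.4 CPM in control and IR, so free RNA can give single UMIs in any class. Its part in the joint counts was not tested. Of 112 mature DC-like cells with Ccl17, 111 held Ccl22 and 112 held Ccr7.

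**Figure D4:**
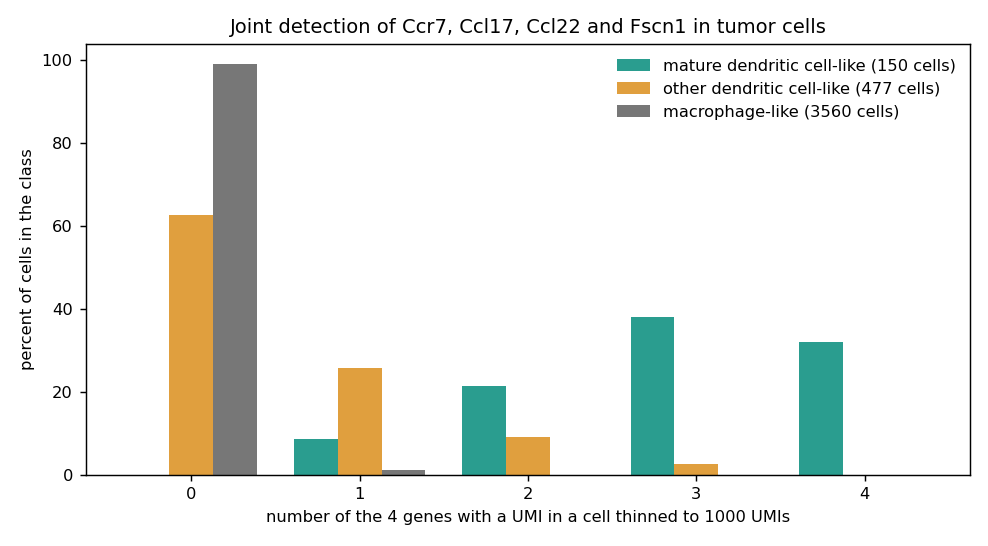
The vertical axis is the percent of tumor cells in a class and the horizontal axis the number of the 4 genes with a UMI after each cell was thinned to 1000 UMIs. Colours give the class: 150 mature DC-like, 477 other DC-like and 3560 macrophage-like cells. Mature DC-like cells most often held 3 or 4 of the genes, and 98.8% of macrophage-like cells held none.

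Single mature DC-like cells differed widely in level. The median Ccr7 level per cell was 3911 CPM in control and 3474 CPM in IR, with quartiles of 1815 and 5499 CPM and of 2656 and 5231 CPM. Ccl22 had medians of 3077 and 2964 CPM and Fscn1 of 1704 and 1741 CPM. Ccl17 was uneven, with medians of 564 and 502 CPM, and the 5 highest of the 44 control cells held 51.6% of its UMIs. For the other 3 genes the 5 highest control cells held 27.4% to 35.6%.

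The partners of the axis were looked up in lists chosen with earlier results of these data known, which gives their counts no weight as evidence. The CCR7 ligand genes Ccl19, Ccl21a and Ccl21b, each listed under 2 near-identical features and so uncertain, had 0 UMIs in tumor DC-like cells, and 1 Ccl19 UMI was seen in macrophage-like cells. Ccr4, the receptor of both chemokines, had 0 UMIs in DC-like cells and 1 in macrophage-like cells, and Ccr8 had 0 in both. Of the 3 axis partners with enough UMIs in control, 2 were lower in DC-like than in macrophage-like cells (18.8% of all genes), S1pr1, a receptor for egress into lymph, at -4.52 and Ptger2, a prostaglandin E2 receptor, at -2.80. In IR 1 of 3 was higher (9.25% of all genes), Ptger4, another prostaglandin E2 receptor, at 2.22, and Ptger2 was lower (15.0%) at -3.72.

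Genes that accompany maturation were counted in the same comparison. In the co-stimulation and cytokine list, 7 of 13 measured genes in control and 6 of 13 in IR were past the limit upward (5.79% and 9.25% of all genes were) and 1 in each, Il6, downward (18.8% and 15.0%), with list medians of 1.23 and 0.97 against -0.19 and 0.03 for all genes. Il12b, a subunit of the cytokine IL-12, stood at 6.71 in control (210 against 8 UMIs), and Ccl5, a T cell chemokine, at 3.49. In the NF-kB list 4 of 12 and 5 of 12 were higher (5.79% and 9.25% of all genes were), and 1 and 2 were lower (18.8% and 15.0%). Relb, a subunit of the non-canonical pathway, was at 1.81 and 2.22 and Map3k14, its upstream kinase, at 3.20 and 3.68, whereas Tnfaip3, an inhibitor of the pathway, was at -2.31 and -1.72. Of the inducers of the 2 chemokines, 3 of 9 in control and 1 of 9 in IR were higher, with Irf4, a transcription factor of DCs, at 1.93 and 3.97, and 1 and 2 were lower. Here the 1 of 9 higher in IR and the counts lower stood near the shares of all genes.

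Mature cells had the higher Ccr7 level and lower levels of the other chemokine receptors. Of the other myeloid chemokine receptors, 4 of 4 measured in control and 3 of 4 in IR were lower in the mature cells (685 of 2736 and 655 of 3306 genes were), with Ccr1 at -5.11 and -4.93. The co-stimulation list had 6 of 10 higher in both libraries (9.72% and 10.7% of all genes were) and none lower, among them Tnfrsf9, a co-stimulatory receptor, at 3.52 and 3.34. The NF-kB list had 4 of 11 and 5 of 11 higher, with Relb at 2.57 and 2.49. In the actin list, which holds partners of fascin in the cytoskeleton, 3 of 15 and 3 of 16 were higher, and the 3 lower in each library were no larger a share than that of all genes. Marcks, which links actin to the membrane, was at 2.95 and 2.58.

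In blood, Ccr7, Ccl22 and Fscn1 were not detected in DC-like cells. The 150 DC-like cells of control blood and the 75 of IR blood had 0 UMIs of Ccr7, Ccl22 and Fscn1, and Ccl17 had 1 and 0. Against a floor of 3 UMIs over the blood class (1.89 and 2.99 CPM), Ccr7 was at least 358-fold higher in the DC-like cells of control tumors and at least 451-fold higher in those of IR tumors. The bounds were 315 and 346 for Ccl22 and 152 and 169.7 for Fscn1. None of the blood DC-like cells was of the mature class, so these bounds set a mix with mature cells against cells without them. In the other DC-like cells of the tumor alone, Fscn1 was at 3.15 CPM in control and 3.98 CPM in IR, near the blood floors. Ccr7 was at 168 and 301.9 CPM and Ccl22 at 161 and 207 CPM in those tumor cells. Blood Ccr7 lay in lymphocytes, with 294 CPM in 51 B cell-like and 251 CPM in 66 T cell-like cells of control blood, and 312 CPM in 23 B cell-like cells and 6 UMIs in 5 T cell-like cells of IR blood.

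IR was compared with control within the DC-like cells of the tumor. In cells labelled WT the log2 ratio was 0.87 (0.75 to 0.99) for Ccr7, 0.43 (0.30 to 0.56) for Ccl22, 0.51 (0.42 to 0.60) for Ccl17 and 0.57 (0.37 to 0.77) for Fscn1. In cells labelled cKO it was 0.98 (0.85 to 1.11) for Ccr7, 1.12 (0.97 to 1.28) for Ccl22, -0.11 (-0.21 to -0.01) for Ccl17 and 0.86 (0.66 to 1.07) for Fscn1. Ccl22 under the cKO label was thus the only 1 of these 8 values past the limit, where 2.34% (WT) and 3.56% (cKO) of genes were past it upward. With a 4-fold margin asked of both hashtags, which left 136 and 303 DC-like cells, the WT values were 0.036 for Ccr7, -0.42 for Ccl22, 1.31 for Ccl17 and -0.75 for Fscn1. This margin left 3138 of 4656 kept cells in control and 6125 of 6824 in IR. Every kept cell that it removed had been labelled WT, a label that 2513 control and 3085 IR cells held before it. At resolution 1.2 Ccl22 under the cKO label was at 0.54, under the limit. Without the removal of doublets by Scrublet, and with the cells clustered anew, the DC-like class held 1389 and 792 cells in place of 277 and 356. Kept cells rose only from 4656 to 4921 in control and from 6824 to 7255 in IR. Most DC-like cells gained in control had thus been kept outside this class in the main run. In the enlarged class all 8 values were past the limit: 1.94, 1.45, 1.58 and 1.65 in cells labelled WT and 2.56, 2.61, 1.03 and 2.49 in cells labelled cKO, for Ccr7, Ccl22, Ccl17 and Fscn1. With genotypes from HTODemux, a tool that calls hashtags by clustering, Ccl17 under the cKO label was at 0.090 and Ccr7 at 1.22. With classes gated cell by cell, Ccr7 was past the limit under both labels (1.11 and 1.22), as were Ccl22 (1.39) and Fscn1 (1.16) under the cKO label.

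The share of mature cells among the DC-like cells moved in the same direction. It was 14.9% (9.94 to 21.0) and 17.6% (10.8 to 26.4) in control and 23.1% (16.6 to 30.8) and 37.3% (30.7 to 44.3) in IR, for WT and cKO, and 15.9% (11.8 to 20.7) against 31.5% (26.7 to 36.6) with the labels joined. Without the Scrublet removal it was 3.60% against 15.3%, and at resolution 1.2 it was 5.56% against 9.97%. Within mature cells alone the IR over control ratios were smaller: 0.39, 0.11, -0.11 and 0.11 in cells labelled WT and -0.17, -0.01, -0.35 and -0.39 in cells labelled cKO, for Ccr7, Ccl22, Ccl17 and Fscn1. None of these 8 was past the limit (3.38% and 4.65% of genes were, upward). Within the other DC-like cells Ccr7 was at 1.06 (0.81 to 1.32) in cells labelled WT, past the limit as 2.7% of genes were, and at 0.63 in cells labelled cKO (3.36%), Ccl22 was at 0.06 and 0.79, and Ccl17 at 0.63 and -0.00.

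The cKO label was compared with the WT label in the same DC-like cells. In control the log2 ratio was 0.27 (0.12 to 0.42) for Ccr7, -0.22 (-0.39 to -0.05) for Ccl22, 0.31 (0.21 to 0.42) for Ccl17 and 0.27 (0.04 to 0.51) for Fscn1. In IR it was 0.37 (0.28 to 0.47), 0.47 (0.36 to 0.59), -0.31 (-0.39 to -0.22) and 0.57 (0.40 to 0.73) in the same order. None of the 8 was past the limit, nor were more than 0.804% of all genes in control and 0.696% in IR. The signs in control depended on the processing: with the margin on both hashtags Ccr7 was at -0.90 and Fscn1 at -1.43, without the Scrublet removal both were at -0.25, and at resolution 1.2 Ccl22 was at 0.27. In the other tumor matrix Fscn1 was at -0.19. Within mature cells the ratios were 0.47, -0.05, -0.06 and 0.37 in control and -0.10, -0.17, -0.31 and -0.13 in IR. In these DC-like cells the macrophage list (14 genes, 1 at 0 in each group) was at 419 and 621 CPM in control and at 616 and 458 CPM in IR, and the monocyte list (9 genes, 1 at 0 in control cKO) at 2408 and 1529 CPM and at 3172 and 2532 CPM, for WT and cKO. Their part in the ratios of label and of IR was not tested. The comparison of the labels has no replicate.

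**Figure D5:**
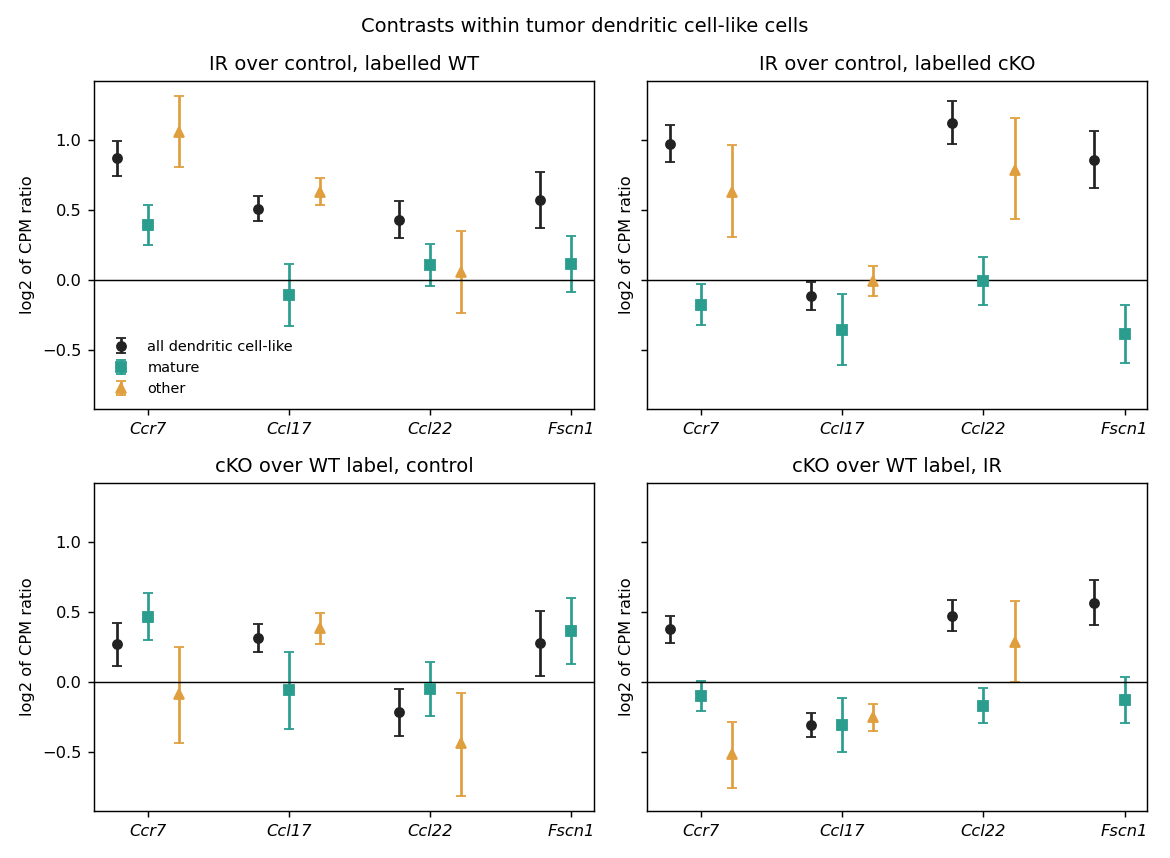
Each panel gives 1 contrast within tumor DC-like cells. The vertical axis is the log2 ratio of CPM and the horizontal axis the 4 genes, with circles for all DC-like cells, squares for mature and triangles for other DC-like cells, exact conditional binomial 95% intervals as bars, and values under 100 UMIs left out. For Ccr7, Ccl22 and Fscn1 in the IR contrasts the circles lie above the squares, and the mature values of the 2 IR contrasts lie between -0.39 and 0.39.

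Over all kept tumor cells the IR over control ratio was 1.82 (1.70 to 1.95) for Ccr7 and 1.97 (1.83 to 2.12) for Ccl22 in cells labelled cKO, both past the limit as 5.19% of genes were upward, and 0.51 and 0.12 in cells labelled WT, where 2.58% of genes were. Mature DC-like cells were 0.840% and 2.09% of the kept cells labelled cKO in control and IR, and 1.03% and 1.10% of those labelled WT. In tumor control Ccl22 under the cKO label was at -1.27 (-1.43 to -1.11) against WT, past the limit as 1.3% of genes were downward, and Ccr7 was at -0.82 (-0.97 to -0.68). DC-like cells were 6.96% of the kept cells labelled WT and 4.76% of those labelled cKO there. The part of these shares in the ratios was not tested. With the droplets that both tumor matrices shared left out, 156 control and 192 IR cells remained and none fell in a DC-like class. In these cells the IR over control ratio under the cKO label was -2.63 for Ccr7 and -3.49 for Ccl22. The cKO over WT ratio in control was 2.15 for Ccr7 and 1.22 for Ccl22. These signs were opposite to those in all cells, but so few cells without a DC-like class cannot show whether the direction changed.

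The pattern of each gene over 41 combinations of library, label and class with at least 50 cells was compared with that of 12597 genes by Pearson's r on log2 CPM with 10 CPM added, as a description over combinations that share libraries. Of the mature DC-like cells, those labelled cKO in tumor IR (78 cells) entered. The other mature groups held 26, 18 and 34 cells, so every r holds the mature class through that combination alone. Ccr7 and Ccl22 were most alike among the 4 (r = 0.90), then Ccl17 and Ccl22 (0.84) and Ccr7 and Ccl17 (0.73). Over these combinations Fscn1 had the lowest values (0.54 with Ccl22, 0.46 with Ccr7, 0.25 with Ccl17). The genes closest to Ccl22 were Tm4sf5 (0.98), Il4i1 (0.98) and Zfp366 (0.97), which encodes a transcriptional regulator of DCs. Tm4sf5 (0.90) and Ramp3 (0.89) came closest to Ccr7. Closest to Ccl17 were Htr7, a serotonin receptor (0.96), and Prr15 (0.95), and closest to Fscn1 were Clu, which encodes clusterin (0.98), and Arpin, an inhibitor of the Arp2/3 complex (0.96).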

How the data were processed

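Single-cell libraries of tumor and blood cells were made with a 10x 3′ kit, with hashtag libraries beside them. The authors aligned reads to mm10 with Cell Ranger (6.0.1 in the methods, another release in the file headers) and deposited raw counts of UMIs per gene and barcode, which were used here as deposited, with no unused per-sample columns.

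Barcodes were kept at 500 or more UMIs after cell calling, 200 or more genes and at most 25% mitochondrial UMIs. A cell needed 20 hashtag UMIs, and was labelled WT where B0301 was at least B0302 and cKO where B0302 was at least 4 times B0301. Scrublet (scanpy 1.11.5) marked at most 4 cells per library at its own threshold, so the top 6% of scores were removed. Cells were clustered in Seurat 5.3.0 (2000 variable genes, 40 components, resolution 0.8) without the 4 genes, the pathway lists, Ythdf2, Lyz1 and Lyz2. A cluster took the name of a list with at least 3 markers in at least 25% of its cells at a fold of at least 2.

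CPM is UMIs per 1000000 gene UMIs. Intervals (95%) are exact Poisson for CPM, exact conditional binomial for ratios (1 UMI added) and Clopper-Pearson for shares, and cover counting error only. Each group was 1 pool, so no test was run. Values were computed with scipy 1.17.1. The members and lists were chosen with earlier results of these data known. Genes named outside the 4 were pathway genes past the 2-fold limit and the 5 most alike in pattern. Alternatives were other hashtag calls, doublet and mitochondrial filters, cell calling, clustering, scaling, minimum UMIs and thinning. Use of the other tumor matrix and of all other tumor cells as the second sum was added after seeing the data.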

Additional observations from a re-analysis of the deposited data

Results flagged for a closer look

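The cKO over WT log2 ratio had opposite signs in control and irradiated tumors in several sums. Over all kept tumor cells it was -0.82 in control and 0.49 in IR for Ccr7, and -1.27 and 0.59 for Ccl22. Within DC-like cells it was 0.31 and -0.31 for Ccl17 and -0.22 and 0.47 for Ccl22. The IR over control ratio of Ccl17 within DC-like cells was 0.51 in cells labelled WT and -0.11 in cells labelled cKO. With 1 pool per group, none of these differences was tested.

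Tumor barcodes without a hashtag call were in no comparison and also carried the 4 genes. The 7127 such barcodes of tumor control, of which 6398 (89.8%) were kept cells of tumor IR, had Ccr7 at 83.7 CPM, Ccl17 at 194 CPM, Ccl22 at 61.6 CPM and Fscn1 at 43.8 CPM. The 4801 of tumor IR, of which 4305 (89.7%) were kept cells of tumor control, had Ccr7 at 33.4 CPM, Ccl17 at 134 CPM, Ccl22 at 32.9 CPM and Fscn1 at 41.0 CPM.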

How the results depend on the processing

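The excess of the 4 genes in DC-like over macrophage-like cells was positive in all 12 settings run. Those that changed only the scaling or the added UMI could not turn ratios of this size. The macrophage-like class was not the same in each: in tumor IR it held 2472 cells in the main run, 1231 with HTODemux genotypes and 4060 at resolution 0.4. The range of the excess in control and IR was 5.85 to 8.74 and 7.75 to 10.10 for Ccr7, 3.81 to 5.17 and 2.84 to 5.69 for Ccl17, 5.45 to 8.00 and 7.90 to 9.74 for Ccl22, and 3.27 to 8.88 and 5.24 to 9.38 for Fscn1. These ranges include the setting with all other kept tumor cells as the second sum, which gave the lowest Fscn1 values. Against macrophage-like cells the lowest were 5.76 and 7.46. The comparisons of label and of IR within DC-like cells were less stable, and their values are given by setting; the cause was not tested. No paired analysis was possible because each group was 1 pool and the results came from no test. With a minimum of 20 UMIs, genes past the 2-fold limit numbered 3172 in place of 1904 (DC-like over macrophage-like, control) and 3053 in place of 1951 (IR), 281 in place of 22 (cKO over WT in DC-like cells, control) and 277 in place of 23 (IR), and 439 in place of 86 (IR over control, WT) and 573 in place of 125 (cKO). TMM factors moved the split of higher and lower genes from 744 and 1207 to 553 and 1446 for DC-like over macrophage-like cells in IR, and from 13 and 9 to 8 and 9 for cKO over WT in control. With genotypes from HTODemux, the log2 ratio of dendritic cell-like over macrophage-like cells was 4.05 for Ccl17 in tumor IR. Its CPM over all kept cells was 89.3 for Ccr7, 212 for Ccl17 and 68.8 for Ccl22 in tumor IR. There the cKO over WT log2 ratio in dendritic cell-like cells was 0.55 for Ccr7, -0.16 for Ccl17 and 0.67 for Ccl22 in IR. There the IR over control log2 ratio in dendritic cell-like cells was 1.22 for Ccr7, 0.090 for Ccl17 and 1.31 for Ccl22 in cells labelled cKO. With a margin of 4 asked of both hashtags, the log2 ratio of dendritic cell-like over macrophage-like cells was 4.80 for Ccl17 in tumor control, and 5.69 for Ccl17 in tumor IR. Its CPM over all kept cells was 114 for Ccl17 and 47.5 for Fscn1 in tumor control, and 90.1 for Ccr7, 69.1 for Ccl22 and 46.3 for Fscn1 in tumor IR. Its CPM in mature dendritic cell-like cells was 1509 for Ccl17 and 2323 for Fscn1 in tumor control. Its mature share of dendritic cell-like cells was 22.1% in tumor control. There the cKO over WT log2 ratio in dendritic cell-like cells was -0.90 for Ccr7, 0.82 for Ccl17, -1.42 for Ccl22 and -1.43 for Fscn1 in control, and 0.11 for Ccr7, -0.55 for Ccl17, 0.19 for Ccl22 and 0.20 for Fscn1 in IR. There the IR over control log2 ratio in dendritic cell-like cells was 0.036 for Ccr7, 1.31 for Ccl17, -0.42 for Ccl22 and -0.75 for Fscn1 in cells labelled WT. There the cKO over WT log2 ratio in all kept cells was 0.39 for Ccl17 in control, and -0.061 for Fscn1 in IR. Without the Scrublet removal, the log2 ratio of dendritic cell-like over macrophage-like cells was 5.85 for Ccr7, 4.38 for Ccl17, 5.45 for Ccl22 and 5.76 for Fscn1 in tumor control, and 7.91 for Ccr7, 3.48 for Ccl17, 8.11 for Ccl22 and 7.67 for Fscn1 in tumor IR. Its CPM over all kept cells was 195 for Ccl17 in tumor IR. Its CPM in mature dendritic cell-like cells was 3458 for Ccr7, 2939 for Ccl22 and 1797 for Fscn1 in tumor control, and 4030 for Ccr7, 1211 for Ccl17, 3110 for Ccl22 and 1803 for Fscn1 in tumor IR. Its mature share of dendritic cell-like cells was 3.60% in tumor control and 15.3% in tumor IR. Its cKO over WT log2 ratio in dendritic cell-like cells was -0.25 for Ccr7, 0.18 for Ccl17, -0.68 for Ccl22 and -0.25 for Fscn1 in control. There the IR over control log2 ratio in dendritic cell-like cells was 1.94 for Ccr7, 1.58 for Ccl17, 1.45 for Ccl22 and 1.65 for Fscn1 in cells labelled WT, and 2.56 for Ccr7, 1.03 for Ccl17, 2.61 for Ccl22 and 2.49 for Fscn1 in cells labelled cKO. At resolution 0.4, the log2 ratio of dendritic cell-like over macrophage-like cells was 7.70 for Ccr7 and 3.82 for Ccl17 in tumor control, and 3.47 for Ccl17 and 8.77 for Ccl22 in tumor IR. At resolution 1.2, the log2 ratio of dendritic cell-like over macrophage-like cells was 7.20 for Ccr7, 3.81 for Ccl17, 6.45 for Ccl22 and 6.70 for Fscn1 in tumor control, and 7.75 for Ccr7, 2.84 for Ccl17, 8.25 for Ccl22 and 7.46 for Fscn1 in tumor IR. Its CPM in mature dendritic cell-like cells was 1229 for Ccl17 and 2123 for Fscn1 in tumor IR. Its mature share of dendritic cell-like cells was 5.56% in tumor control and 9.97% in tumor IR. There the cKO over WT log2 ratio in dendritic cell-like cells was 0.76 for Ccr7, 0.89 for Ccl17, 0.27 for Ccl22 and 0.77 for Fscn1 in control, and -0.44 for Ccl17 in IR. Its IR over control log2 ratio in dendritic cell-like cells was 0.67 for Ccl17 in cells labelled WT, and 0.38 for Ccr7, -0.67 for Ccl17, 0.54 for Ccl22 and 0.29 for Fscn1 in cells labelled cKO. With classes gated cell by cell, the log2 ratio of dendritic cell-like over macrophage-like cells was 7.36 for Ccr7, 4.17 for Ccl17 and 7.12 for Fscn1 in tumor control, and 8.92 for Ccr7, 3.099 for Ccl17 and 7.90 for Ccl22 in tumor IR. Its CPM in mature dendritic cell-like cells was 2507 for Ccr7, 1500 for Ccl17, 2041 for Ccl22 and 1224 for Fscn1 in tumor control, and 3379 for Ccr7, 2550 for Ccl22 and 1424 for Fscn1 in tumor IR. Its mature share of dendritic cell-like cells was 22.4% in tumor control and 41.0% in tumor IR. There the cKO over WT log2 ratio in dendritic cell-like cells was 0.17 for Ccl17 in control. There the IR over control log2 ratio in dendritic cell-like cells was 1.11 for Ccr7, 0.66 for Ccl22 and 0.84 for Fscn1 in cells labelled WT, and 1.22 for Ccr7, 1.39 for Ccl22 and 1.16 for Fscn1 in cells labelled cKO. With every barcode of at least 500 UMIs, the log2 ratio of dendritic cell-like over macrophage-like cells was 5.01 for Ccl17 in tumor IR. At a mitochondrial limit of 10%, the log2 ratio of dendritic cell-like over macrophage-like cells was 4.78 for Ccl17 and 7.77 for Fscn1 in tumor IR. With TMM factors, the log2 ratio of dendritic cell-like over macrophage-like cells was 5.25 for Ccl17 in tumor IR. In the other tumor matrix, the log2 ratio of dendritic cell-like over macrophage-like cells was 7.94 for Ccr7 and 7.18 for Ccl22 in tumor control, and 5.30 for Ccl17 and 9.09 for Ccl22 in tumor IR. Its CPM over all kept cells was 145 for Ccl17, 34.2 for Ccl22 and 40.5 for Fscn1 in tumor control. Its CPM in mature dendritic cell-like cells was 2033 for Ccl17 and 1822 for Fscn1 in tumor control. There the cKO over WT log2 ratio in dendritic cell-like cells was -0.19 for Fscn1 in control. There the IR over control log2 ratio in dendritic cell-like cells was 0.39 for Ccl17 in cells labelled WT, and -0.28 for Ccl17 and 1.28 for Fscn1 in cells labelled cKO. With all other kept tumor cells as the second sum, the log2 ratio of dendritic cell-like cells over that sum was 7.58 for Ccr7, 4.49 for Ccl17 and 3.27 for Fscn1 in tumor control, and 3.97 for Ccl17, 9.04 for Ccl22 and 5.24 for Fscn1 in tumor IR. Without the shared tumor barcodes, the CPM over all kept cells was 164 for Ccr7, 78.1 for Ccl17, 102 for Ccl22 and 54.7 for Fscn1 in tumor control, and 52.6 for Ccr7, 22.5 for Ccl17, 7.52 for Ccl22 and 22.5 for Fscn1 in tumor IR. Its cKO over WT log2 ratio in all kept cells was 2.15 for Ccr7, 2.16 for Ccl17 and 1.22 for Ccl22 in control, and -0.61 for Ccr7, -1.10 for Ccl22 and -2.15 for Fscn1 in IR. There the IR over control log2 ratio in all kept cells was -2.63 for Ccr7, -3.49 for Ccl17 and -3.49 for Ccl22 in cells labelled cKO. Leaving out the shared barcodes gave no value for any class, since no DC-like or macrophage-like class remained. The 156 control and 192 IR cells left are too few to read the signs of these ratios. The mature class held 44 and 112 tumor cells, which limits what its sums can show.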
